A study of Drosophila melanogaster with 22 samples.

Results

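Heads of RluA-2 mutant females held lower transcript levels of 163 genes than heads of w1118 females, and these genes, out of 17101 in the count tables and 15759 with a count in any library, are described here. They were chosen from the 8 mock-treated libraries of Exp 2 as those whose log2 ratio of mean levels, RluA-2 over w1118, was -1 or lower after adding 0.5 CPM (CPM is a gene's count scaled to the total gene count of its library), and whose highest RluA-2 library lay below the lowest w1118 library. Lsp1beta, yellow-d2, lush and RluA-2 itself pass the same rule and were left out. The RluA-2 against w1118 values of Exp 2 that follow are therefore descriptions of what was chosen. The CMC libraries, the Exp 1 libraries and the position of the reads within the genes were not used for the choice.

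The Exp 2 libraries were made from RluA-2 del-FRT homozygotes, in which the RluA-2 locus is deleted, and from the isogenic w1118 strain, and the Exp 1 libraries from w1118 alone. All flies were virgin females aged 1 day, and 100 heads were pooled for each replicate. Each poly(A) RNA sample was split into a part treated with CMC, which binds pseudouridine and stops reverse transcription next to it, and a mock-treated part. Exp 2 thus holds 4 CMC and mock pairs for RluA-2 and 4 for w1118, and Exp 1 holds 3 pairs for w1118, or 22 libraries with 12035142 to 30701799 gene counts each. The mutant is a single deletion line, and the labels do not say whether replicates come from separate cultures, so that p-values measure the spread between these pools of heads.

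RluA-2 belongs to the RluA family of pseudouridine synthases, enzymes that turn uridine into pseudouridine within RNA. The head capsule of a fly holds the brain and the eyes and also fat body, cuticle-forming epidermis, muscle and sensory organs. The fat body secretes storage proteins, such as hexamerins, and immune peptides into the blood, and the epidermis of a newly emerged adult still lays down cuticle.

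RluA-2 had 1.95, 2.87, 2.31 and 2.45 CPM in the 4 RluA-2 mock libraries, against 7.23, 7.43, 6.73 and 8.41 CPM in the 4 w1118 mock libraries of Exp 2, so that it was lower in every library of the mutant but not absent. Summed levels of neuron markers were 2230 to 2400 CPM in RluA-2 and 2180 to 2440 CPM in w1118 of Exp 2, and those of photoreceptor markers 26100 to 30000 CPM in RluA-2 and 28000 to 29600 CPM in w1118. Both ranges overlapped, as did those of muscle markers, at 11500 to 12400 CPM in RluA-2 and 11700 to 12800 CPM in w1118. The glia markers did not, with 1900 to 2040 CPM in RluA-2 and 2170 to 2290 CPM in w1118. Most of that sum was Gs2, a glutamine synthetase, with means of 1395 CPM in RluA-2 and 1625 CPM in w1118. Eaat1 averaged 449 CPM in RluA-2 and 464 CPM in w1118, moody 63.0 and 71.8 CPM, and repo 63.5 and 60.1 CPM. Of these 4 glia markers, edgeR called Gs2 and moody lower at an adjusted p under 0.05 and 0 higher. Of all tested genes, 12.6% were called lower and 11.1% higher. In RNA from whole heads, fewer cells of a type and less RNA per cell cannot be told apart.

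The count tables give FlyBase identifiers, and 123 of the 163 genes could be paired with a symbol and a span of the release 6 genome by their reads. Of these 123 genes, 118 are protein coding, 4 are long noncoding RNAs and 1 is an antisense RNA. The remaining 40 are counted in all totals, and only a few are named by identifier.

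The log2 ratios of the 163 genes, RluA-2 over w1118 in the mock libraries of Exp 2, had a median of -1.32. They were -3 or lower for 8 genes, -2 or lower for 22 and above -1.5 for 108. By the mean level in w1118, 18 genes were at 100 CPM or more, 54 at 10 to 100 CPM, 81 at 1 to 10 CPM and 10 below 1 CPM. Summed over all 163 genes, the 4 RluA-2 mock libraries held 3047.3 to 3775.8 CPM, against 8826.6 to 9546.4 CPM in the 4 w1118 mock libraries of Exp 2 and 4854.3 to 5426.6 CPM in the 3 of Exp 1. Much of that sum is Lsp2, and without it the sums were 2020.6 to 2484.4 CPM in RluA-2, 5707.6 to 6224.8 CPM in w1118 of Exp 2 and 4147.1 to 4606.7 CPM in w1118 of Exp 1.

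The threshold cuts through a continuous range. Grip91 at -1.006, CG14566 at -1.004 and CG6472 at -1.001 were just inside it, and Oat at -0.998, WRNexo at -0.994 and Tsp42Er at -0.991 were just outside. Grip91, a component of the gamma-tubulin ring complex that starts microtubules, had 15.6, 15.2, 15.98 and 13.5 CPM in RluA-2 and 32.8, 30.8, 31.4 and 28.2 CPM in w1118 of Exp 2. Oat, ornithine aminotransferase, averaged 94.4 ± 7.9 CPM in RluA-2 and 189 ± 7.3 CPM in w1118 of Exp 2 (SD, n = 4 each).

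**Figure D1:**
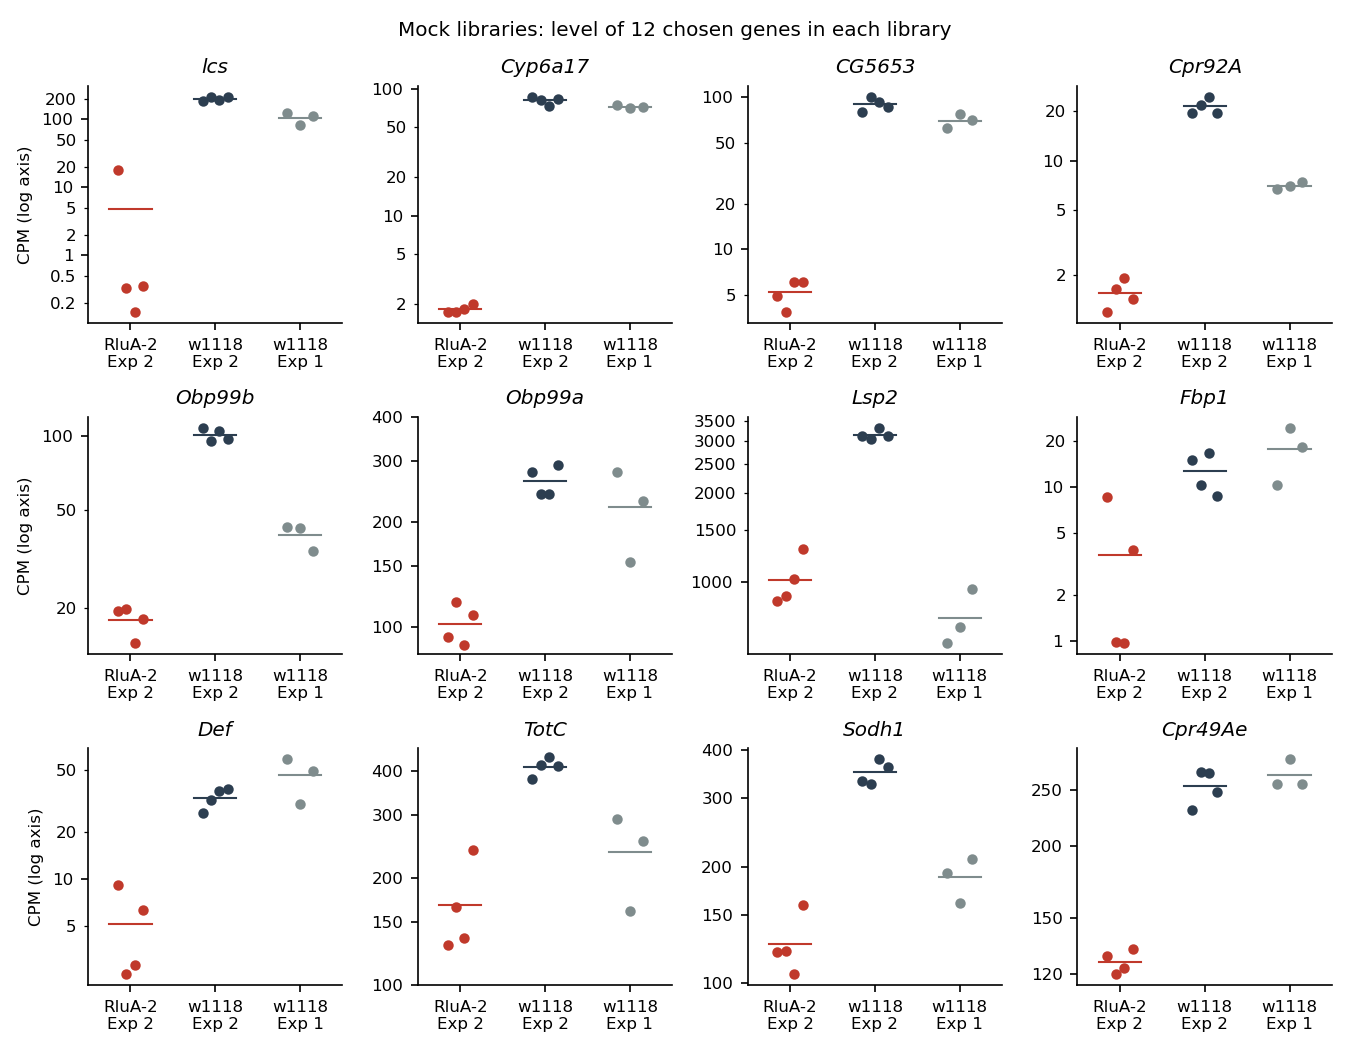
Level of 12 of the chosen genes in each mock library, in CPM on a log axis, for RluA-2 of Exp 2, w1118 of Exp 2 and w1118 of Exp 1 (points are libraries, bars are means of 4, 4 and 3 libraries). All RluA-2 points lie below all w1118 points of Exp 2, as the choice requires, while the w1118 points of Exp 1 lie near either group, between them or, for Lsp2, mostly below the RluA-2 points.

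A few genes were almost lost from the mutant libraries. FBgn0052581, which has no symbol here, had 0 counts in all 8 RluA-2 libraries, against 38.7, 37.6, 37.0 and 37.6 CPM in the w1118 mock libraries of Exp 2 and 46.3, 44.4 and 40.2 CPM in those of Exp 1. Taking 3 counts per library as the most that a count of 0 allows, it was at least 222-fold lower in the RluA-2 mock libraries. All 7 w1118 mock libraries of both experiments lay far above the mutant.

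lcs had 18.1, 0.329, 0.144 and 0.357 CPM in RluA-2, against 188, 211, 193 and 215 CPM in w1118 of Exp 2 and 124.9, 82.7 and 111 CPM in w1118 of Exp 1. RluA-2 replicate 1 thus stood apart from the other 3 mutant libraries, and its CMC library did the same with 17.6 CPM, against 0.187, 0.453 and 0.287 CPM in the other 3. The fitted log2 fold change of lcs in the mock libraries was -5.20 ± 0.67 (SE) with all 8 libraries and -9.49 ± 0.14 without RluA-2 replicate 1 (edgeR). The nearest of the 163 genes to lcs on the X chromosome, lncRNA:CR45500, had 0 counts in the 4 RluA-2 mock libraries, including replicate 1, and 1.04, 0.994, 0.249 and 0.636 CPM in w1118 of Exp 2.

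Cyp6a17, a cytochrome P450 known from the fly brain for its part in temperature preference, had 1.73, 1.72, 1.83 and 1.99 CPM in RluA-2, against 86.4, 81.6, 73.2 and 83.5 CPM in w1118 of Exp 2. The w1118 mock libraries of Exp 1 had 74.4, 70.3 and 71.3 CPM, within or just below the range of w1118 in Exp 2. CG5653 followed the same order with 4.95, 3.86, 6.06 and 6.11 CPM in RluA-2, 80.0, 101, 92.7 and 85.8 CPM in w1118 of Exp 2 and 62.7, 77.4 and 70.5 CPM in w1118 of Exp 1. For both genes the 2 sets of w1118 flies were much closer to each other than to the mutant.

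Among the other genes with the lowest ratios, Erasp and FBgn0043577 overlapped between the w1118 libraries of both experiments. Erasp had 0.409, 0.0821, 0.0481 and 0.102 CPM in RluA-2, 9.93, 10.4, 8.72 and 9.13 CPM in w1118 of Exp 2 and 10.8, 6.44 and 7.94 CPM in w1118 of Exp 1. CG3699, a gene with a log2 ratio of -2.45, averaged 4.29 CPM in RluA-2, 25.7 CPM in w1118 of Exp 2 and 17.5 CPM in w1118 of Exp 1. CG14456 differed more between the w1118 flies, with 7.95, 4.85, 6.21 and 6.83 CPM in RluA-2, 52.9, 57.5, 54.8 and 51.6 CPM in w1118 of Exp 2 and 21.4, 23.6 and 18.4 CPM in w1118 of Exp 1.

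Storage proteins made up the gene list with the largest share of chosen genes. Of 5 listed hexamerin and receptor genes of the larval fat body, 4 could be paired with an identifier and tested. All 4 were called lower in RluA-2 (all genes 12.6% lower and 11.1% higher). All 4 are among the 163, so that this count follows from the choice. They are Lsp2 and Lsp1gamma, subunits of the larval serum proteins, Fbp1, the receptor through which the fat body takes hexamerins up, and Fbp2, another fat body protein. Lsp2 had 860.3, 894, 1027 and 1291 CPM in RluA-2 and 3119, 3039.8, 3322 and 3126 CPM in w1118 of Exp 2. The w1118 libraries of Exp 1 had only 621, 707 and 947 CPM, lower than w1118 of Exp 2 by more than any other of the 163 genes and overlapping the mutant.

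The other 3 did not share that pattern. Fbp1 had 8.64, 0.986, 0.963 and 3.92 CPM in RluA-2, 15.1, 10.3, 16.8 and 8.82 CPM in w1118 of Exp 2 and 10.3, 24.4 and 18.4 CPM in w1118 of Exp 1. Fbp2 had 1.59, 0.411, 0.241 and 0.866 CPM in RluA-2, 5.47, 3.35, 5.65 and 2.32 CPM in w1118 of Exp 2 and 5.59, 11.7 and 5.15 CPM in w1118 of Exp 1. Lsp1gamma ran in the same order, with means of 0.581 CPM in RluA-2, 2.94 CPM in w1118 of Exp 2 and 4.18 CPM in w1118 of Exp 1.

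In these 3 genes RluA-2 replicates 1 and 4 lay above replicates 2 and 3, and the highest mutant library of Fbp1 lay just below the lowest w1118 library of Exp 2. Fbp1 lost its edgeR call without RluA-2 replicate 2 (adjusted p = 0.0564) or 4 (0.054) and without w1118 replicate 1 (0.0624). Over the fat body markers that are not among the 163, the summed level was higher in RluA-2, at 59100 to 66700 CPM against 52100 to 56500 CPM in w1118 of Exp 2 and 42700 to 48000 CPM in w1118 of Exp 1. Most of that sum was the yolk protein genes Yp1, Yp2 and Yp3, and the rest was apolpp, with 3116 CPM in RluA-2 and 2552 CPM in w1118 of Exp 2. In the mock libraries edgeR called apolpp, Yp1 and Yp3 higher in RluA-2 (all genes 11.1%). In the CMC libraries it called only apolpp higher (all genes 8.8%). The part of these markers in the result was not tested.

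Immune and stress peptides were divided. Def, the antibacterial peptide defensin, had 9.09, 2.46, 2.84 and 6.32 CPM in RluA-2, 26.2, 32.2, 36.2 and 37.3 CPM in w1118 of Exp 2 and 58.6, 30.0 and 49.0 CPM in w1118 of Exp 1. AttD, an attacin, had 1.00, 0.0821, 0.0481 and 0.255 CPM in RluA-2, 1.56, 2.35, 1.66 and 3.27 CPM in w1118 of Exp 2 and 5.25, 4.86 and 2.72 CPM in w1118 of Exp 1. For both genes all 3 Exp 1 libraries lay above the lowest w1118 library of Exp 2.

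Of 24 tested antimicrobial and immune-induced peptide genes, 4 were called lower in RluA-2 (AttD, CecA1, CecA2 and Def) and 6 higher (Drsl4, Drsl5, BomS6, BomT2, BomT3 and Dso1), where 12.6% of all genes were called lower and 11.1% higher, with a median log2 fold change of 0.15 where that of all tested genes was 0.004. The others, among them AttB at -1.38 with an adjusted p of 0.0547, were not called by edgeR's quasi-likelihood test. TotC, a Turandot peptide that is released under stress, had 129.8, 166, 136 and 239.8 CPM in RluA-2, 379.5, 415, 437 and 414 CPM in w1118 of Exp 2 and 293, 161 and 255 CPM in w1118 of Exp 1. TotA, the other Turandot gene that could be paired with an identifier, averaged 113 CPM in RluA-2 and 198 CPM in w1118 of Exp 2.

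Cuticle proteins of the CPR family, which carry the chitin-binding Rebers and Riddiford motif, formed the largest named family with 7 genes (Cpr47Ea, Cpr47Ee, Cpr49Ae, Cpr64Aa, Cpr76Bc, Cpr76Bd and Cpr92A), which were singled out after their values were seen. They were 5.69% of the 123 genes with a symbol, against 0.362% of all tested genes with one. Of 25 tested CPR genes, 17 were called lower and 2 higher in RluA-2 (all genes 12.6% and 11.1%), with log2 fold changes between -3.76 and 1.54 and a median of -0.48.

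Cpr92A had 1.18, 1.64, 1.93 and 1.43 CPM in RluA-2, 19.6, 22.01, 24.6 and 19.7 CPM in w1118 of Exp 2 and 6.66, 6.99 and 7.36 CPM in w1118 of Exp 1, which fell between the other groups. Cpr49Ae had 129, 119.8, 123 and 132 CPM in RluA-2, 231, 269, 267 and 248 CPM in w1118 of Exp 2 and 256, 283 and 256 CPM in w1118 of Exp 1, so that here both sets of w1118 flies overlapped. Cpr76Bc was the only one of the 163 genes with all 3 Exp 1 mock libraries below all 4 of RluA-2, at 9.0, 8.79, 6.88 and 6.42 CPM in RluA-2, 16.4, 17.4, 19.8 and 18.9 CPM in w1118 of Exp 2 and 5.74, 6.22 and 6.29 CPM in w1118 of Exp 1. zye and nyo, whose products are zona pellucida domain proteins of the cuticle-forming surface of epidermal cells, were also among the 163, at -1.08 and -1.22. Of 13 tested cuticle tanning and pigment enzymes, 7 were called lower in RluA-2 and 0 higher (all genes 12.6% and 11.1%), and none of them passed the ratio that chose the 163 genes.

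Odorant-binding and other sensory genes were represented by Obp99a, Obp99b, Ir76a and Rh5. Obp99b had 19.5, 19.9, 14.4 and 18.1 CPM in RluA-2, 108, 94.7, 104 and 96.9 CPM in w1118 of Exp 2 and 42.6, 42.3 and 34.0 CPM in w1118 of Exp 1. Obp99a had 94.0, 118, 88.9 and 109 CPM in RluA-2, 279, 241, 240.2 and 291 CPM in w1118 of Exp 2 and 278, 154 and 230.4 CPM in w1118 of Exp 1. Both genes lie on 3R, and their w1118 levels in Exp 1 were apart from Exp 2 for Obp99b and overlapped Exp 2 for Obp99a.

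Of 22 tested odorant-binding protein genes, 8 were called lower and 7 higher in RluA-2 (all genes 12.6% and 11.1%), with a median log2 fold change of -0.01. Rh5, the blue-sensitive opsin of a subset of R8 photoreceptors, is described although its values were seen first. It had 117, 117, 113 and 107 CPM in RluA-2, 234, 218, 239.9 and 249.5 CPM in w1118 of Exp 2 and 235, 196 and 210.1 CPM in w1118 of Exp 1. Among 10 tested photoreceptor markers, Rh3 (log2 fold change -0.40) and Rh4 (-0.32), opsins of R7 cells, were called lower and 0 higher (all genes 12.6% and 11.1%). Rh6, the opsin of the other R8 cells, had 0.08 with an adjusted p of 0.244 (edgeR).

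Several metabolic enzymes are given as single genes, with no list behind them. Sodh1, a sorbitol dehydrogenase, had 120.4, 121, 105 and 159 CPM in RluA-2, 333, 326, 379.7 and 362 CPM in w1118 of Exp 2 and 193, 161 and 209 CPM in w1118 of Exp 1. AGBE, the glycogen branching enzyme, had 168, 147, 144 and 149 CPM in RluA-2, 293, 310.2, 361 and 315 CPM in w1118 of Exp 2 and 219, 199 and 233 CPM in w1118 of Exp 1. In both genes w1118 of Exp 1 lay between the 2 groups of Exp 2 without touching either.

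Had1, a hydroxyacid dehydrogenase, averaged 111 CPM in RluA-2, 286 CPM in w1118 of Exp 2 and 226 CPM in w1118 of Exp 1. Sardh (sarcosine dehydrogenase), arg (arginase) and Gcat (glycine C-acetyltransferase), enzymes of amino acid breakdown that were picked after their values were seen, had log2 ratios of -1.86, -1.69 and -1.43. Gcat had 19.9, 19.5, 17.8 and 21.2 CPM in RluA-2, 51.1, 55.9, 52.1 and 55.5 CPM in w1118 of Exp 2 and 29.0, 24.0 and 30.2 CPM in w1118 of Exp 1. The cytochrome P450 family had 3 of its 48 tested genes among the 163 (Cyp6a17, Cyp304a1 and Cyp309a1), with 25 called lower and 6 called higher in RluA-2 (all genes 12.6% and 11.1%). Of 25 tested glutathione S-transferase genes with a symbol, 12 were called lower and 2 higher (all genes 12.6% and 11.1%), and none was among the 123 chosen genes with a symbol.

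Single genes that act in DNA replication or repair were picked after their values were seen, and no list of such genes was counted. PCNA, the sliding clamp of DNA polymerases, had a log2 ratio of -1.24, Mcm7, a subunit of the replicative helicase, -1.07, Claspin -1.11, Ts, thymidylate synthase, -1.18, and mre11, a nuclease of double-strand break repair, -1.71. mre11 had 7.32, 8.38, 7.99 and 7.18 CPM in RluA-2, 28.2, 24.1, 25.6 and 27.5 CPM in w1118 of Exp 2 and 21.0, 19.7 and 23.2 CPM in w1118 of Exp 1. Eh, the eclosion hormone that triggers shedding of the old cuticle, had 4.95, 3.12, 3.802 and 4.13 CPM in RluA-2, 13.6, 13.3, 13.3 and 14.5 CPM in w1118 of Exp 2 and 7.49, 8.41 and 7.86 CPM in w1118 of Exp 1. The 3 groups of Eh did not overlap, and those of mre11 did not either.

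The w1118 flies of Exp 1, which took no part in the choice, were next set beside both groups of Exp 2. In 131 of the 163 genes (80.4%) all 3 Exp 1 mock libraries lay above all 4 RluA-2 libraries, where the share over all 10161 genes that passed the filter on low counts was 19.5%. In 87 genes (53.4%) they lay below all 4 w1118 libraries of Exp 2, where the share over all genes was 26.2%, and in 11 genes above them, where it was 14.4%. In 57 genes (35.0%) they lay above all of RluA-2 and below all of w1118 in Exp 2, and the share over all genes was 1.45%.

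The choice itself favours genes with a high w1118 level in Exp 2, a low RluA-2 level and a gap between them. These shares and those that follow therefore describe the chosen genes and are no test. The median log2 ratio of w1118 in Exp 2 over w1118 in Exp 1 was 0.42, from -1.84 to 2.05, against a median of 0.04 over all genes. The median log2 ratio of RluA-2 over w1118 of Exp 1 was -0.93, with 79 genes (48.5%) at -1 or lower, against 2.87% of all genes. The CMC libraries gave 123 genes with Exp 1 above RluA-2 (all genes 22.2%) and 81 with Exp 1 below w1118 of Exp 2 (all genes 26.4%). Experiment and library preparation cannot be told apart in these comparisons.

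**Figure D2:**
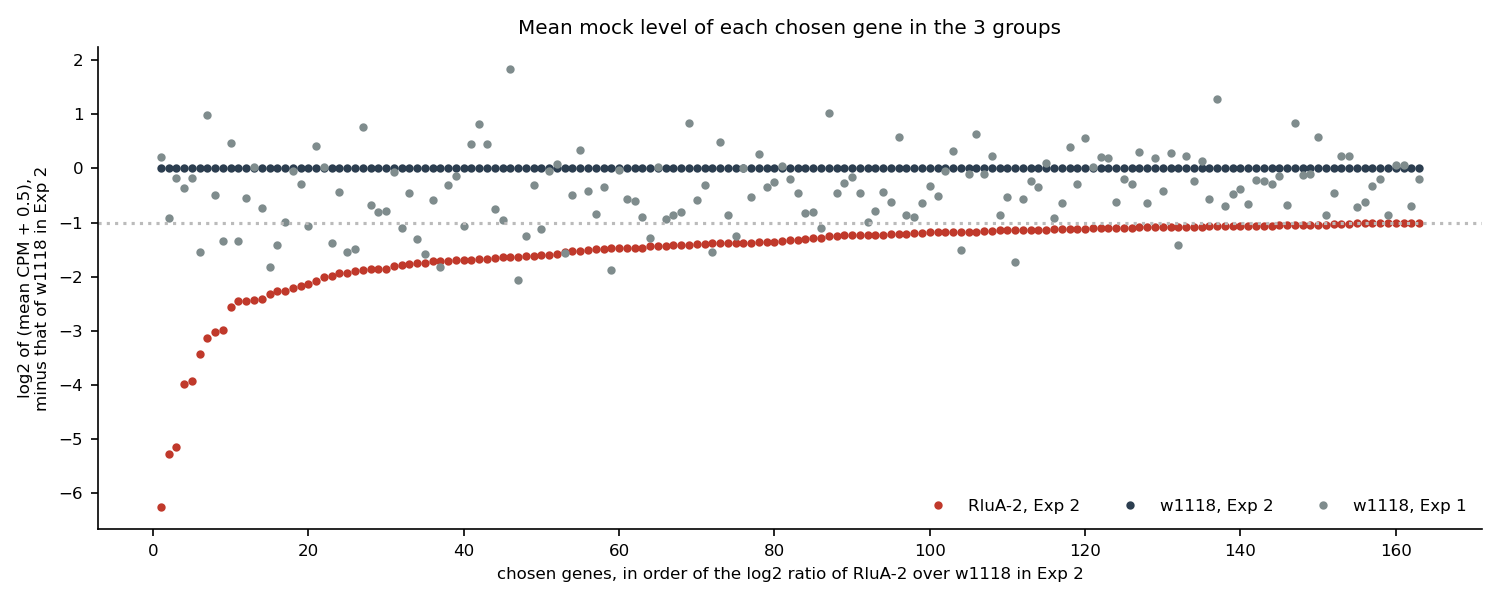
Mean mock level of each of the 163 genes in RluA-2 of Exp 2, w1118 of Exp 2 and w1118 of Exp 1, as log2 of CPM + 0.5 minus the value of w1118 in Exp 2 (y axis), with genes ordered by the ratio that chose them (x axis). The grey points of Exp 1 scatter between -2.05 and 1.84, most of them between the line of w1118 at 0 and the RluA-2 points.

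The CMC libraries of Exp 2 come from the same RNA samples as the mock libraries, so that they repeat the library preparation and not the flies. All 4 RluA-2 libraries lay below all 4 w1118 libraries in 155 of the 163 genes, where 10.9% of all detected genes did so (13.1% in the mock libraries). The median log2 ratio was -1.25, with 127 genes at -1 or lower and 0 above 0, and 151 genes were within 0.5 of their ratio in the mock libraries. Lsp2 had 792, 892, 993 and 1311 CPM in the RluA-2 CMC libraries and 3026, 2956, 3294 and 3231 CPM in those of w1118, and Obp99b had 17.9, 17.4, 15.6 and 16.9 CPM in RluA-2 and 107, 98.6, 98.7 and 103 CPM in w1118.

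With edgeR's quasi-likelihood test, 150 of the 151 tested genes were called lower in the CMC libraries at an adjusted p under 0.05, where 12.3% of all genes were called lower and 8.8% higher. In the mock libraries 158 of 158 tested genes were, where 12.6% were. The other 5 genes did not pass the filter on low counts in the mock libraries. Many of the 158 passed it through w1118 alone, so that this count follows from the choice. The CMC libraries were filtered in the same way and share RNA with the mock libraries, so the 150 calls are no independent test. A difference between the CMC and the mock effect of RluA-2 was called for 0 of 10344 genes (edgeR, 311 at an unadjusted p under 0.05).

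The 8 genes whose groups overlapped in the CMC libraries were CG4269 and 7 genes without a symbol. The gene not called there was FBgn0013704, with 53.2, 37.1, 33.0 and 39.5 CPM in the RluA-2 mock libraries, against 77.4, 66.5, 206 and 71.9 CPM in the w1118 mock libraries of Exp 2. Its CMC libraries had 2.56, 1.68, 2.42 and 2.63 CPM in RluA-2 and 3.05, 2.27, 4.09 and 1.66 CPM in w1118 of Exp 2. This RNA was thus read well in mock libraries and hardly at all in CMC libraries of either genotype.

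**Figure D3:**
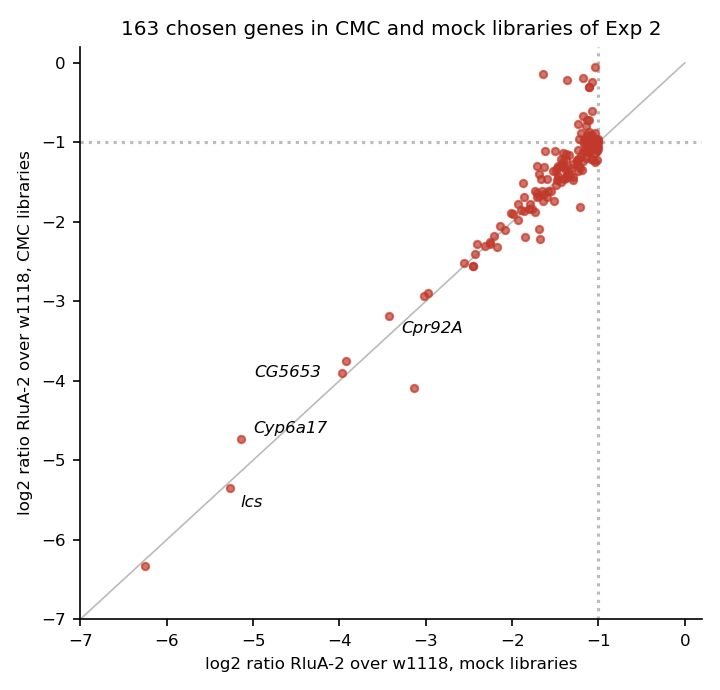
Log2 ratio of RluA-2 over w1118 in Exp 2 for the 163 genes, in CMC libraries (y axis) against mock libraries (x axis), with the diagonal and dotted lines at -1. Most points follow the diagonal, lcs and Cyp6a17 lie at its low end, and a few genes on the right lie between -0.5 and 0 in CMC libraries.

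The treatment itself was compared in Exp 1, in libraries and a contrast that the choice did not use. Of 148 tested genes, 22 were lower (14.9%) and 16 higher (10.8%) in CMC than in mock libraries with edgeR and the RNA sample as a block, where 12.6% and 12.4% of all 10018 tested genes were. The median log2 fold change was -0.03, against -0.01 over all genes. The shares among the chosen genes were thus near those among all genes. The counts depend on the pairs used, among the chosen genes and among all genes. Without Exp 1 replicate 1, 8 of 149 chosen genes were lower and 4 higher, where 321 and 202 of all 10008 genes were. Without replicate 2, 29 of 150 were lower and 30 higher, where 1836 and 1920 of all 10094 genes were.

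The largest fall was that of FBgn0052303, with 0, 0.0769 and 0.3298 CPM in the Exp 1 CMC libraries, against 7.35, 5.90 and 10.2 CPM in the mock libraries (log2 fold change -5.86 ± 0.44 SE, adjusted p = 0.00163, edgeR). FBgn0013704 fell by 4.17 on the log2 scale (adjusted p = 0.00122, edgeR), with 9.0, 7.46 and 4.42 CPM in CMC and 99.8, 117 and 164 CPM in mock libraries. Falls of 5.64 and 4.94 were fitted for another 2 genes without a symbol. FBgn0052303 and FBgn0013704 did not overlap between the treatments.

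The largest rises were smaller, at 1.05 for FBgn0038148, 0.91 for FBgn0085320 and 0.85 for zye (adjusted p = 0.00634, edgeR). zye had 18.1, 22.8 and 23.3 CPM in CMC libraries and 8.51, 14.5 and 12.7 CPM in mock libraries of Exp 1, and in Exp 2 the same contrast was 0.42 in RluA-2 and 0.33 in w1118. The cuticle protein genes Cpr47Ee (0.76), Cpr49Ae (0.48) and Cpr47Ea (0.32) were also higher in CMC libraries of Exp 1. Without Exp 1 replicate 1 the calls of FBgn0038148 (adjusted p = 0.0585, edgeR) and Cpr49Ae (adjusted p = 0.129) were lost, and with DESeq2 that of FBgn0038148 (adjusted p = 0.143).

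Cyp6a17 was lower in Exp 1 CMC libraries, with 45.4, 49.7 and 57.3 CPM against 74.4, 70.3 and 71.3 CPM in mock libraries (log2 fold change -0.53 ± 0.10 SE, adjusted p = 0.0127, edgeR). In the w1118 libraries of Exp 2 the same contrast was -0.07 with an adjusted p of 0.2. lcs was higher, with 188, 157 and 121 CPM in CMC and 124.9, 82.7 and 111 CPM in mock libraries of Exp 1 (0.53 ± 0.14 SE, adjusted p = 0.0383, edgeR). Without Exp 1 replicate 1 the calls of Cyp6a17 (adjusted p = 0.151) and lcs (adjusted p = 0.119) were lost. Lsp2, Def, TotC, Obp99a and Obp99b were not called in this contrast with all 3 pairs. Def (adjusted p = 0.00662, edgeR) and Obp99b (0.00023) were called without replicate 2, and TotC (0.00996) and Obp99a (0.0415) without replicate 3.

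By position, 38 of the 123 placed genes lay on 3L (30.9%, against 18.9% of all tested and placed genes), 30 on 3R (24.4% against 25.0%), 26 on 2R (21.1% against 20.4%), 15 on X (12.2% against 16.8%) and 14 on 2L (11.4% against 17.6%). In 11 places, holding 31 genes in all, chosen genes lay under 30 kb from each other. Of these, 7 places held 2 genes and 4 held 3 or more. The same count was not made for all tested and placed genes, so whether 31 of 123 is more than usual is not known.

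On the X chromosome 5 neighbours were chosen together, at X:13727204-13745476 of the release 6 genome. They are g, or garnet, a subunit of the AP-3 complex that carries pigment to the eye's granules, Grip91, CG11134, CG11151 and lncRNA:CR42861. g had 108, 117, 111 and 104 CPM in RluA-2, 234, 226, 224 and 233 CPM in w1118 of Exp 2 and 192, 199.5 and 192 CPM in w1118 of Exp 1. CG11151 had 116, 118, 105 and 142 CPM in RluA-2, 241, 251, 248 and 269 CPM in w1118 of Exp 2 and 214, 174 and 190.5 CPM in w1118 of Exp 1. In both genes all 7 w1118 libraries lay above the 4 mutant libraries.

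The ratios of the 5 genes were close, at -1.05 for g, -1.01 for Grip91, -1.10 for CG11134, -1.06 for CG11151 and -1.03 for lncRNA:CR42861. The 2 genes before g, Mrgn1 and mus101, missed the threshold with -0.91 and -0.83. Mrgn1 had 69.5, 66.9, 65.7 and 67.5 CPM in RluA-2, 129, 123, 127 and 129 CPM in w1118 of Exp 2 and 104, 116 and 115 CPM in w1118 of Exp 1.

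This stretch of 7 placed genes ended abruptly after lncRNA:CR42861, with -0.22 for Pdcd4, -0.08 for Rtc1 and 0.18 for Yp3. On the other side the nearest placed gene, CG11158, had 0.30. It ends at X:13684616, while Mrgn1 starts at X:13718734, and no gene was placed between them. Where the stretch ends on that side is therefore not known. CG11134 and CG11151 lie within the span of Grip91 on the opposite strand, and the authors' counting ignored antisense reads and reads over several genes. Whether gene dosage or sequence differs between the strains in this stretch was not tested.

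**Figure D4:**
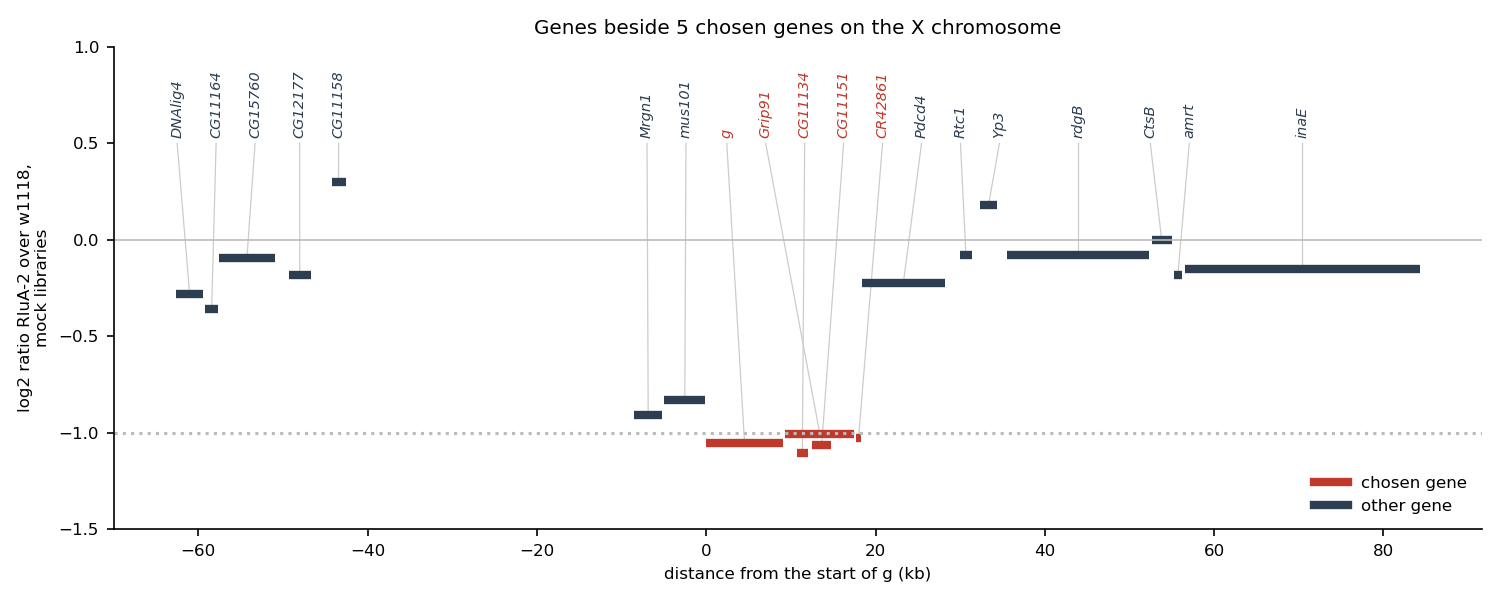
Log2 ratio of RluA-2 over w1118 in the mock libraries of Exp 2 (y axis) for the tested and placed genes around g on the X chromosome, drawn to scale by distance from the start of g in kb (x axis), with chosen genes in red. The 7 genes from Mrgn1 to CR42861 lie between -1.10 and -0.83 and the other genes between -0.36 and 0.30.

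A second group of 5 lay at 2R:15680545-15698010, and its ratios were unequal. They were -1.37 for CG30091, -3.93 for Erasp, -1.01 for CG30088, -3.02 for CG33460 and -1.74 for CG33462. Impbeta11, an importin that lies between CG30091 and Erasp, had 38.1 CPM in RluA-2 and 40.2 CPM in w1118 of Exp 2, a log2 ratio of -0.08. Low counts limit CG30088, which had 0 counts in the RluA-2 mock libraries and averaged 0.508 CPM in w1118.

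At 3L:16261185-16288422 the chosen genes CG34247, CG13067, CG13065 and CG13046 (-1.22, -1.24, -1.41 and -1.77) were interleaved with CG13071, CG4950 and CG13068 (-0.89, -0.42 and -0.56), which missed the threshold. At 2R:11251751-11297520 the cuticle genes Cpr47Ea and Cpr47Ee and the gene CG42336 had -1.59, -1.47 and -1.14. Cpr47Ef beside them had -0.93, while CG30033 in the same span had 0.83.

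The position of CMC terminations within a gene shows which part of a transcript the reads came from. Each span, introns included, was divided into 10 equal parts, and 76 genes had at least 5 parts with 40 or more terminations over the 4 w1118 libraries of Exp 2. A small constant was added to both means before the log2 ratio of a part. In 74 of them even the part with the highest log2 ratio was at -0.5 or lower, in 44 it was at -1 or lower, and 0 genes had a part above 0. The median range of the read parts within a gene was 0.69. The genes were chosen for lower counts in the same RNA samples, so these numbers describe how evenly the read parts shared the difference, and parts with fewer terminations were not read.

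lcs was lower throughout, from -6.30 to -4.80 over 9 parts, as was CG5653, from -4.12 to -3.25. The RluA-2 side of lcs mainly describes replicate 1, with 17.6 CPM in its CMC library against 0.187 to 0.453 CPM in the other 3. Cyp6a17 was not even. Of its 236 terminations in the RluA-2 CMC libraries, 202 fell in part 2 of the span, where the log2 ratio was -2.04, and the other parts held 0 to 12, with ratios of -6.66 to -3.72. In w1118 of Exp 2 the same parts held 46 to 770 terminations. With so few RluA-2 terminations, the ratios of these parts also depend on the added constant and on the w1118 depth. The mutant reads of Cyp6a17 were thus nearly all from a single part of the gene.

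Bin1, a protein bound to the Sin3 histone deacetylase complex, differed along its span as well. Its first 7 parts had log2 ratios of -2.46 to -2.09, with 21 to 54 terminations in RluA-2 and 99 to 240 in w1118 of Exp 2. Parts 9 and 10 had -0.66 and -0.74, with 440 and 342 terminations in RluA-2 and 641 and 530 in w1118. In CG3609 part 1 had 108 terminations in RluA-2 and 101 in w1118, a log2 ratio of -0.03, and the other read parts had -1.17 to -1.04. Lsp2, in contrast, lay between -1.77 and -1.396 in all 10 parts, and g between -1.32 and -0.85.

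**Figure D5:**
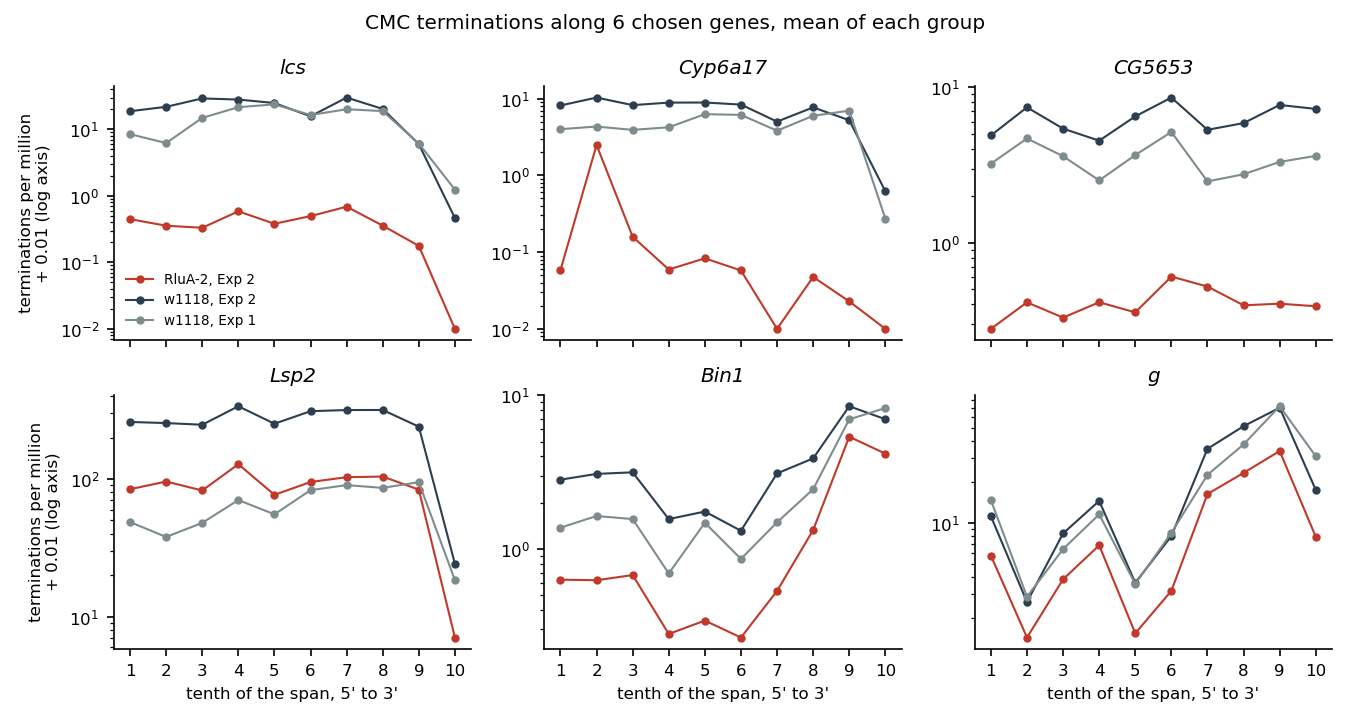
Mean CMC terminations, scaled to the library and with 0.01 added, in each of 10 parts of the span of 6 chosen genes (x axis, from 5′ to 3′, y axis logarithmic) for RluA-2 of Exp 2, w1118 of Exp 2 and w1118 of Exp 1. lcs, CG5653, Lsp2 and g run parallel in the genotypes of Exp 2, Cyp6a17 keeps a peak in the part numbered 2 in RluA-2, and the curves of Bin1 approach each other at the 3′ end. The RluA-2 curve of lcs mainly describes replicate 1.

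The termination fold change compares, on the log2 scale, how often reads end at a position in CMC and in mock libraries relative to the coverage there, with 1 termination added to each. It was set side by side at positions that respond to CMC. This comparison was added after the files had been seen. Candidate positions were taken from Exp 1, as those with a termination fold change of 2 or more in all 3 pairs, at least 10 CMC terminations and a coverage of at least 20. Of 8929 positions read in the chosen genes, 57 in 11 genes met this, and 50 in 9 genes were read in all 8 pairs of Exp 2. Lsp2 held 18 of the 50, Cpr49Ae 10, Had1 5, CG11151, Obp99a and Sodh1 4 each, g 3 and Cpr47Ee and TotC 1 each. Bases were not known, so that these positions are not called pseudouridines.

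In Exp 2 the termination fold change was above 0 in all 8 pairs at 47 of the 50 positions (94.0%), where 33.7% of all 4372 positions read in all 11 pairs in these genes were. It was above 1 in all 4 RluA-2 pairs at 28 positions (56.0%, all positions 8.49%) and in all 4 w1118 pairs at 36 (72.0%, all positions 12.4%). The genes were chosen for lower RluA-2 counts, and RluA-2 values mostly rested on fewer CMC terminations. Lsp2 3L:12130948, for example, had 8 to 37 in RluA-2 and 50 to 71 in w1118 of Exp 2. Depth and genotype therefore cannot be told apart in these counts or in the differences that follow. The termination fold change of RluA-2 minus that of w1118 had a median of -0.21, and of -0.10 once each pair was centred on its own median over the positions read in these genes (0.56 to 1.16 in RluA-2 and 0.71 to 1.23 in w1118 of Exp 2). At Lsp2 3L:12129481 it averaged 3.30 ± 0.67 in RluA-2 and 2.97 ± 0.32 in w1118 of Exp 2 (SD, n = 4 each), which overlapped. This position and the next one were picked after their values were seen.

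At Sodh1 3R:7054432 it averaged 2.67 ± 0.81 in RluA-2 and 3.81 ± 0.78 in w1118 of Exp 2 (SD), a difference of -1.14 with a two-sided exact permutation p of 0.114. The genotypes did not overlap at 2 of the 50 positions, Cpr49Ae 2R:12404267 with a difference of 1.202 and Lsp2 3L:12131173 with -0.56, each with an exact permutation p of 0.0286. With 4 pairs against 4 this is the smallest p the test can give. With each pair centred on its median, Lsp2 3L:12131173 had an exact permutation p of 0.171, and Sodh1 3R:7054439, at -0.71, had 0.0286. After adjustment over the 50 positions the lowest exact permutation p was 0.52, and 0.66 with centred pairs. At Cpr49Ae 2R:12404267 only 7 to 12 terminations in RluA-2 and 9 to 15 in w1118 stood behind each value.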

How the data were processed

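Psi-seq libraries were made from heads of virgin females in 2 experiments, as CMC and mock portions of 11 RNA samples. The authors trimmed reads with Trimmomatic 0.33, removed rRNA and spike-in reads with Bowtie2, aligned with STAR 2.6.1a to the release 6 genome and counted sense-strand read pairs with featureCounts 2.0.0, leaving out pairs that map to several places or genes. The deposited count of each gene is unscaled, and the deposited termination tables list termination counts and the coverage signal at each position. Groups are those of the labels. The genes and lists described were chosen with earlier results of these data known.

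Counts were tested with edgeR 4.0.16 (quasi-likelihood, TMM, filterByExpr, Benjamini-Hochberg adjustment over all genes tested, threshold 0.05) in R 4.3.3, with DESeq2 1.42.0, its size factors, no filter, a replicate block and each replicate left out as alternatives. Exp 1 was fitted with the RNA sample as a block. The tests were checked on simulated data.

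Identifiers were paired with RefSeq spans of release 6 by matching gene counts with terminations over the CMC libraries. Of 10693 identifiers with at least 50 counts, 6984 were paired. Of 100 whose symbol is known, 53 took the right span, 0 a wrong one and 47 none. Named were the 12 genes with the lowest ratio, the 8 with the highest w1118 level, the 3 nearest each side of the threshold, those on fixed lists and, in Exp 1, the 3 largest rises and falls. Other genes were chosen after their values were seen. Python 3.11 with SciPy 1.17.1 was used for exact permutation tests.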

Additional observations from a re-analysis of the deposited data

Results flagged for a closer look

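Among 36 named genes, 141 groups of 4 libraries were examined, and in 5 of them 1 value lay far from the other 3. If groups were independent, chance would give such a gap in about 1 of 20, or about 7 of these. CMC and mock groups share RNA and are not independent, so this number does not decide whether a value arose by chance. For lcs, RluA-2 replicate 1 had 18.1 CPM in the mock library, against 0.144 to 0.357 CPM in the other 3, and 17.6 CPM in the CMC library, against 0.187 to 0.453 CPM. Since both libraries come from one RNA sample, the value repeats across library preparations. Erasp also had its highest mutant mock value in replicate 1, at 0.409 CPM against 0.0481 to 0.102 CPM. FBgn0043577 was at 0 counts in every RluA-2 library except those of replicate 4, with 0.102 CPM in the mock and 0.0479 CPM in the CMC library.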

How the results depend on the processing

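The number of genes chosen depends on the constant added before the ratio: 303 with 0.1 CPM, which include all 163, and 77 with 2 CPM. Other settings gave 146 (DESeq2 size factors) to 184 (overlap allowed), leaving out 1 library gave 152 to 186, and the CMC libraries gave 148, of which 127 are among the 163. Calls of chosen genes lower in RluA-2 were 156 to 162 in mock libraries and 149 to 155 in CMC libraries under all alternatives. With 1 library left out they were 157 to 161 and 150 to 153. With the replicate block, whose numbers did not pair the genotypes (correlations from -0.07 to 0.06), they were 156 and 150. The mock counts follow from the choice, and the CMC libraries share their RNA. Between 158 and 163 chosen genes were tested in mock libraries and between 151 and 163 in CMC libraries. Of all tested genes, 1103 to 1303 were called lower in mock and 983 to 1255 in CMC libraries. Calls of CMC against mock in Exp 1 (38) ranged from 12 without replicate 1 to 59 without replicate 2, those higher (16) from 4 to 30 and those lower (22) from 8 to 29. DESeq2 gave 10 higher and 16 lower, and a fit with no replicate block 11 and 19. Over all genes the calls in Exp 1 were 1261 lower and 1245 higher with edgeR, 712 and 852 with DESeq2 and 321 and 202 without replicate 1. No result changed its direction. Fbp1 lost its mock call with DESeq2 (adjusted p = 0.0696), without RluA-2 replicate 2 (0.0564, edgeR) or 4 (0.054) and without w1118 replicate 1 (0.0624), and 1 gene without a symbol lost it with the replicate block (adjusted p = 0.0552). The mock log2 fold change of AttD was -3.96 without RluA-2 replicate 1, against -2.48 with all libraries, and that of lcs in CMC libraries -9.38 against -5.52. Centring the pairs left 0 positions called between genotypes. The cause of these changes was not tested. Low counts limit the 91 genes under 10 CPM in w1118.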
